A study of Mus musculus with 12 samples.

Results

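Serial passage changed gene expression differently in the mouse osteosarcoma line Dunn and in its metastatic derivative LM8. For most genes described here that difference itself passed a test, and the others are given with their adjusted p. In LM8, Pnma5 rose at least 449-fold, and the homeobox genes Rhox2h and Rhox2e 124-fold and 140-fold, all on the X chromosome. Pnma5 entered the test only through late LM8, so the filter fixed its direction. Dunn cells held both Rhox2 genes above the early LM8 level at both passages, and these close copies may share probe signal. Catsperz fell at least 273-fold and Cd99 305-fold in Dunn, and neither passed in LM8. Timp2 and Rbms1 fell 60.6-fold and 40.5-fold in LM8, where in Dunn Timp2 did not pass and Rbms1 rose 1.85-fold, and Ccnd2 rose 19-fold in Dunn and did not pass in LM8. The differences of Cd99, Timp2 and Ccnd2 did not pass in every fit that left out 1 slide. For each probe the change from early to late LM8 cells minus the change from early to late Dunn cells was taken, called the difference between the lines below, on log2 signals over all 12 arrays. A positive value means a change that was more positive in LM8. Probes were tested where they were well above background on all 3 arrays of at least 1 of the 4 groups, and 413 of 21570 probes (1.91%) passed an adjusted p under 0.05 in limma. The 413 probes contained 326 named genes, 190 with a more positive and 136 with a more negative change in LM8.

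LM8 was derived from Dunn by selection in mice for cells that spread to the lung, so both lines share an origin and carry an osteoblastic label. Long culture is known to select among the cells of a tumour line. Germline genes, normally expressed in testis, ovary or early embryo, are silenced by methylation in most body cells and are often switched on again in tumour lines, where many of those on the X chromosome are known as cancer-testis genes.

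The 4 groups were Dunn at passage 25 (early) and passage 86 (late) and LM8 at passage 24 (early) and passage 91 (late), each with 3 arrays and no treatment. Late cells had been derived from the early cells, and both were thawed and grown for some passages before RNA was taken. The sources used here describe 3 samples per condition and do not say whether passaging was repeated independently, so the p-values measure the spread between these samples. A difference between the groups also holds the position on the slide, since each group had the same position on all 3 slides, and the 2 cannot be told apart. The passage numbers crossed by the lines were also not the same.

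Early Dunn arrays were the dimmest, with 39.1 to 50.2% of probes well above background against 52.9 to 59.7% on the other arrays. The median SD of the tested probes was 0.41 in early Dunn, 0.33 in late Dunn, 0.26 in early LM8 and 0.22 in late LM8 cells, while the test used 1 spread per probe for all groups. Of the 7 osteoblast markers on the array, 4 were well above background on all arrays of early Dunn, 5 in late Dunn, 5 in early LM8 and 7 in late LM8, and none was below background on every array of a group. Runx2, Sp7, Col1a1 and Ibsp were above background on all 12 arrays, and the other 3 lacked a value on some array. Of 6 epithelial markers none was above background on all arrays of any group, and the blood and endothelial markers Ptprc, Adgre1, Tyrobp, Cdh5, Tek and Emcn were likewise above background on all arrays of no group, whereas Csf1r, Itgam, Kdr and Vwf were on all 12 arrays. Of 7 macrophage markers 2 to 4, of 6 endothelial markers 2 or 3 and of 5 skeletal muscle markers 1 or 2 were above background on all arrays of a group, the muscle regulators Myod1 and Myog not among them. The summed signal of the adipocyte list, in units of each array's 75th percentile, was 13.5 to 22.4 in early and 8.37 to 10.9 in late Dunn, and 0.205 to 0.230 in early and 0.179 to 0.224 in late LM8. Pparg, a regulator of fat cells, and Plin1 were above background on all arrays, Fabp4 and Cidec on none. No marker of these lists passed the test of the difference between the lines.

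Levels are log2 processed signals minus the 75th percentile of the array, so that 0 is that percentile and levels of different genes are not compared. The median difference between the lines over all tested probes was 0.15, with a median change of -0.04 in LM8 and -0.19 in Dunn, and single values should be read against it. Of the 413 probes, 248 (1.15% of those tested) had a more positive and 165 (0.765%) a more negative change in LM8. Every one of them differed by over 2-fold. Of the 12754 probes above background on all 12 arrays 160 (1.25%) were called, and of the 8816 others 253 (2.87%). Scaling to the 75th percentile of the probes above background on all 12 arrays, the brighter-probe percentile, moved the median difference to -0.05 and gave 196 and 234 probes, so the share with a more positive change was 45.6% instead of 60.0%. Without scaling the median was -0.43 and the split 66 and 162. Leaving out any 1 LM8 array lowered the count from 413 to between 215 and 261, and fits without slide 2 and without slide 3 called 27 and 47 probes.

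The called probes arose in several ways. Of the 248 with a more positive change, 116 fell in Dunn and did not pass in LM8, 101 rose in LM8 and did not pass in Dunn, 8 rose in LM8 and fell in Dunn, 10 rose in both lines and 6 fell in both. Of the 165 with a more negative change, 76 fell in LM8 and did not pass in Dunn, 59 rose in Dunn and did not pass in LM8, 19 fell in LM8 and rose in Dunn, and 8 fell in both. The remaining 7 and 3 probes passed in neither line. In the same fit, 1.19% of all probes rose and 1.93% fell in LM8, and 1.67% rose and 6.7% fell in Dunn. These line-wise calls rest on the spread shared by all 12 arrays, and when each line was fitted on its own 6 arrays 252 of the 413 probes passed in LM8 and 71 in Dunn, where fewer arrays and a wider spread were used. The group whose mean lay farthest from the others was late LM8 for 134 of the 413 probes, late Dunn for 100, early Dunn for 93 and early LM8 for 86, whereas among all tested probes it was early Dunn for 46.3%. For 38 of the called probes, and for 167 of all those tested, every group but late LM8 was above background on no array. They entered the test through that group, so their direction was fixed by the filter, with Pnma5, Zscan4f and Gm9 among them. Likewise 5 of 5 tested probes seen only in early Dunn, 4 of 30 only in late Dunn and 5 of 45 only in early LM8 were called. On each of the 3 slides taken alone, 243 of the 248 and 151 of the 165 probes had the sign of the fit, and the remaining 5 and 14 lacked a value on some slide. The fit averages these same slides and the probes were called on them, so this agreement is no independent replication.

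**Figure D1:**
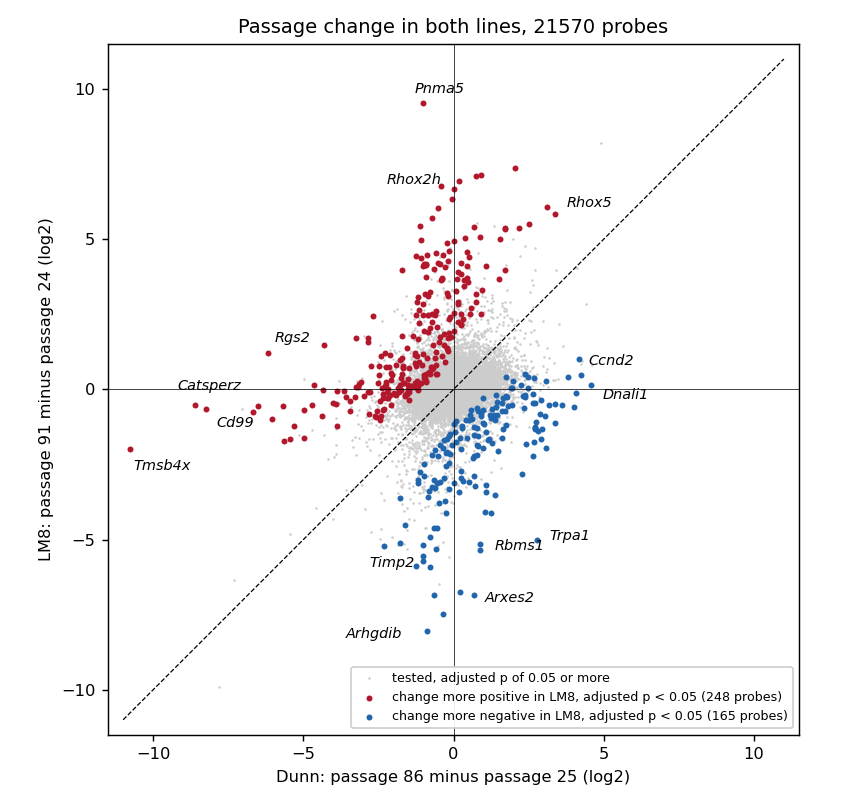
Passage change of each tested probe in Dunn cells (x axis, passage 86 minus passage 25, log2) against LM8 cells (y axis, passage 91 minus passage 24, log2), means of 3 arrays per group. Grey points did not pass the test of the difference between the lines, the 248 red points lie above the dashed line of equal change and the 165 blue points below it, with Pnma5 at the top and Tmsb4x at the far left.

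Large gains in LM8 were found on the X chromosome. Pnma5, a member of the paraneoplastic antigen family, was not well above background on any early LM8 array or on any Dunn array. It entered the test only through late LM8, so the filter fixed its direction and its adjusted p is no independent evidence of a gain. Its levels were -6.96, -6.78 and -7.22 on the early LM8 arrays and 2.56, 2.44 and 2.61 on the late LM8 arrays, without overlap. They were -4.69, -4.97 and -5.92 on the early Dunn arrays and -5.65, -6.48 and -6.47 on the late Dunn arrays, where only background was measured. Pnma5 rose at least 449-fold in LM8, and the difference between the lines was 10.53 (SE 0.46, adjusted p = 1.79e-06). Bounds of this kind divide the brighter group's mean by the mean of the dimmer one, in which a probe below the lowest signal called well above background on an array was raised to that signal. The same step gives a floored difference between the lines, which for Pnma5 was 10.00. It is added wherever a group was at background, since the size of the unfloored value then depends on background readings. Where both groups of a line were below background, that line's floored change is largely a gap between array floors, not expression. It was -1.19 for Pnma5 and -0.97 for Zscan4f in Dunn and -0.42 for Lef1 in LM8, so such floored differences are not exact either.

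Rhox2h, Rhox2e, Rhox2c and Rhox5 belong to the reproductive homeobox cluster, whose genes act in testis, ovary, placenta and embryonic stem cells. The levels of Rhox2h were -3.39, -3.34 and -2.96 on the early LM8 arrays and 3.87, 3.58 and 3.72 on the late LM8 arrays, a 124-fold rise without overlap. In Dunn they were 2.47, 2.30 and 3.02 on the early Dunn arrays and 2.82, 2.72 and 2.76 on the late Dunn arrays, where early and late cells overlapped. The difference between the lines was 6.78 (SE 0.31, adjusted p = 1.79e-06), and a second probe of the gene gave 6.67. Thus late LM8 cells, at 3.72 ± 0.14 (SD, n = 3), came above a level that Dunn cells held at both passages, 2.60 ± 0.38 and 2.77 ± 0.05, and early LM8 cells were the group that stood apart.

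Rhox2e followed the same order. Its levels were -5.23, -4.50 and -4.78 on the early LM8 arrays and 2.25, 2.43 and 2.21 on the late LM8 arrays, and -0.37, 0.29 and -0.19 on the early Dunn arrays and 0.79, 1.04 and 0.65 on the late Dunn arrays. It rose 140-fold in LM8 and 1.89-fold in Dunn (adjusted p = 0.0415), with a difference of 6.22 (SE 0.34, adjusted p = 7.35e-06). Rhox2c, in the same cluster, was above background on 1 of 3 early LM8 arrays and rose by 7.36 (adjusted p = 4.6e-06) in LM8 and 2.03 (adjusted p = 0.0145) in Dunn on the log2 scale, a difference of 5.33 (adjusted p = 0.000914), floored 4.86. Rhox5, also known as Pem and the founding gene of the cluster, rose in both lines without overlap, 56.9-fold in LM8 and 10.5-fold in Dunn. Its levels were -4.19, -4.20 and -4.62 on the early LM8 arrays and 1.60, 1.52 and 1.35 on the late LM8 arrays, and -0.14, -0.18 and -0.41 on the early Dunn arrays and 3.25, 3.04 and 3.16 on the late Dunn arrays, and the difference was 2.44 (SE 0.25, adjusted p = 0.000776). The Rhox2 genes are close copies of each other, so their probes may share signal, and the values of a single copy are uncertain.

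The promoters of these genes are shown because methylation of CG pairs is the known means by which germline genes are kept silent, together with that of Catsperz, which fell in Dunn, and those of Arxes2 and Timp2, which fell in LM8. Methylation was not measured. Each sequence is from RefSeq, runs 5' to 3' from 250 bases before to 50 bases after the start of the gene, is given for the assembly GRCm38.p6, and has every CG in capitals:
Pnma5, chrX:73037054-73037353, - strand: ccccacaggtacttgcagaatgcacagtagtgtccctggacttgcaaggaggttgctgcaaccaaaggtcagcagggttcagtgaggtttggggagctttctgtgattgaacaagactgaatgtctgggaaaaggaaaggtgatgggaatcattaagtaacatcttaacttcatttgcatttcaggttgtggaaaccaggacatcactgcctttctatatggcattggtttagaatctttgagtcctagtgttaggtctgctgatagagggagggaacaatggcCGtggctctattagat
Rhox2h, chrX:37673228-37673527, - strand: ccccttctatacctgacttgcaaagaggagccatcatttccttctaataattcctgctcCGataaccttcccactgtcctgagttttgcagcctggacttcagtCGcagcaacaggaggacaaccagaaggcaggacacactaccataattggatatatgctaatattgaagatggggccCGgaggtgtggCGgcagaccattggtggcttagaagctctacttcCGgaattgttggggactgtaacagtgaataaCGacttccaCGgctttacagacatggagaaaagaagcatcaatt
Rhox2e, chrX:37530218-37530517, + strand: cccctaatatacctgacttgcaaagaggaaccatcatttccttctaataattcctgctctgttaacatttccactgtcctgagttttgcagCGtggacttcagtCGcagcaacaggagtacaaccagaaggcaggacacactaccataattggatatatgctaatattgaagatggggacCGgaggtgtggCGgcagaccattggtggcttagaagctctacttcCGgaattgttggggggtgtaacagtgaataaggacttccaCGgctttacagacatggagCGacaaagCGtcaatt
Rhox5, chrX:37754358-37754657, + strand: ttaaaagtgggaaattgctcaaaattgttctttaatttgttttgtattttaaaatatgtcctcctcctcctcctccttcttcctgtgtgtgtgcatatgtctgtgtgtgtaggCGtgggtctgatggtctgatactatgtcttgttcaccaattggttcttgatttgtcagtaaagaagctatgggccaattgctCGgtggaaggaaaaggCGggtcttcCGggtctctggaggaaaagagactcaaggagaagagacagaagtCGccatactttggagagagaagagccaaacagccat
Catsperz, chr19:6925331-6925630, - strand: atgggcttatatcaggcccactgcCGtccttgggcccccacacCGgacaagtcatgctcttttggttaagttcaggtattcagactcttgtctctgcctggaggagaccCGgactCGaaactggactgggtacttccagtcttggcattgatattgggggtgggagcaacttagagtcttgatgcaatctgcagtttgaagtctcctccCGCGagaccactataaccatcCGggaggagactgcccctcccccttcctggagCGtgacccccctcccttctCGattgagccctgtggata
Arxes2, chrX:135993570-135993869, + strand: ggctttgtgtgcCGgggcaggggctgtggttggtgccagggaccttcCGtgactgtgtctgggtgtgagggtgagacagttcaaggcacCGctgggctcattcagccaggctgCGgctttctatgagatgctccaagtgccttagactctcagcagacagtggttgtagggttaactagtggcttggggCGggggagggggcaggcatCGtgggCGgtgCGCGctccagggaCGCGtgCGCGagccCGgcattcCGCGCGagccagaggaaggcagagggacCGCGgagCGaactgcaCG
Timp2, chr11:118355362-118355661, - strand: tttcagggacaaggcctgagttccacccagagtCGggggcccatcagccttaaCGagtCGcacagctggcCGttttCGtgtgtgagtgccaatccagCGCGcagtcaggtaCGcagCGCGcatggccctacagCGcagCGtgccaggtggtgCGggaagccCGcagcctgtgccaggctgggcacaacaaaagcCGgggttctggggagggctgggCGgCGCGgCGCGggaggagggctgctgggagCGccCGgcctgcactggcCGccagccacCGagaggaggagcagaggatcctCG

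At least 1 CG, which reads the same on both strands, is found in 94.6% of the 32851 windows of 300 bases in the table, with a median of 7. The window of Pnma5 holds 1 CG, and 94.6% of all windows hold as many or more. Those of Rhox5, Rhox2h, Rhox2e and Catsperz hold 5, 7, 8 and 9, which 62.0%, 52.1%, 48.6% and 45.8% of all windows reach. Arxes2 holds 21 and Timp2 25, which 24.8% and 18.4% of windows reach. Over the 10040 of 12549 tested genes with a window, each by its window with the most CG, the median was 21. Of these genes 17.5% held fewer than 10. This median is not comparable with the 7 of single windows. The windows of Rhox2h and Rhox2e are the same at 282 of 300 positions, 94.0%. For the genes called with a rise in LM8, a window was found for 64 of 82, too few, so the comparison of CG counts between such groups is void.

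Further genes gained in LM8 were near or below background in the other groups. Xlr4b, of a lymphocyte-regulated X-linked family, was above background on no early LM8 array and rose at least 44.1-fold, with a difference of 7.21 (adjusted p = 0.000165), floored 5.71. In Dunn its early and late levels overlapped, with 2 of 3 arrays above background in each. Zscan4f on chromosome 7, of a family expressed in the cleavage embryo and in a small share of embryonic stem cells, was above background only in late LM8, where it was at least 23.1-fold higher, and the difference was 4.90 (adjusted p = 0.00312), floored 5.51. Gm9 on the X chromosome behaved alike, at least 33.0-fold higher in late LM8, with a difference of 6.38 (adjusted p = 0.0428), floored 5.82, but its adjusted p reached 0.117 without early LM8 replicate 3. Xlr4b, Zscan4f and Gm9 entered the test through late LM8 alone, and for Zscan4f and Gm9 the filter fixed the direction. The Xlr4 and Zscan4 genes also have close copies.

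Akr1c13, an aldo-keto reductase, was above background on all 12 arrays. Its levels were -3.95, -4.58 and -5.51 on the early LM8 arrays and -0.44, -1.22 and -1.26 on the late LM8 arrays, a 13.0-fold rise, and 1.35, 1.08 and 1.38 on the early Dunn arrays and 1.13, 0.55 and 0.94 on the late Dunn arrays, with overlap. The difference was 4.09 (SE 0.53, adjusted p = 0.00287). Bmp7, a bone morphogenetic protein, rose at least 6.03-fold in LM8 from below background, with 0.95 (adjusted p = 0.061) in Dunn and a difference of 2.37 (adjusted p = 0.0119), floored 1.65. Late LM8 cells at -3.68 ± 0.24 were still below Dunn cells at -1.03 ± 0.27 and -0.08 ± 0.25 (SD, n = 3). Fbln2, a matrix glycoprotein, changed by 2.22 (adjusted p = 0.00926) in LM8 and -1.14 (adjusted p = 0.0986) in Dunn, a difference of 3.36 (adjusted p = 0.0113), floored 3.20. Dmp1, an osteocyte protein of mineralizing bone, had a difference of 3.13 (adjusted p = 0.0335) without passing in either line, and its adjusted p reached 0.0974 without late LM8 replicate 2. Egln3, an oxygen sensor, had a difference of 1.37 (adjusted p = 0.0158), which reached an adjusted p of 0.064 without late LM8 replicate 2.

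A more positive change in LM8 also arose where a gene fell in Dunn and did not pass, or fell less, in LM8. The smallest adjusted p was that of Catsperz, a subunit of the sperm calcium channel, on chromosome 19. Its levels were 2.88, 2.54 and 2.99 on the early Dunn arrays and -5.73, -5.96 and -5.71 on the late Dunn arrays, the latter not above background. In LM8 they were 4.80, 4.51 and 4.25 on the early LM8 arrays and 4.21, 3.99 and 3.81 on the late LM8 arrays, and all LM8 arrays lay above all Dunn arrays. Catsperz fell at least 273-fold in Dunn, changed by -0.52 (adjusted p = 0.332) in LM8, and the difference was 8.09 (SE 0.29, adjusted p = 7.38e-07), floored 7.58.

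Cd99, a cell surface glycoprotein and a diagnostic marker of Ewing sarcoma, was above background on all 12 arrays. Its levels were 4.44, 4.49 and 4.86 on the early Dunn arrays and -2.63, -4.04 and -4.31 on the late Dunn arrays, a 305-fold fall. In LM8 they were 4.03, 3.79 and 3.09 on the early LM8 arrays and 3.15, 3.22 and 2.62 on the late LM8 arrays, with overlap. The difference was 7.62 (SE 0.59, adjusted p = 0.000112). Tmsb4x, thymosin beta 4, which binds actin monomers, had levels of 3.99 and 4.26 on the early Dunn arrays and -5.04, -8.28 and -6.66 on the late Dunn arrays, where 1 early array was left out for an outlier spot and the late arrays were below background. It fell at least 779-fold in Dunn by its only tested probe, against -1.97 (adjusted p = 0.229) in LM8, and the difference was 8.81 (SE 1.01, adjusted p = 0.00221), floored 7.63.

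Rgs2, which shortens signalling through G protein-coupled receptors, fell from 0.33, -0.14 and -0.51 to -4.09, -7.84 and -6.94 in Dunn, at least 40.5-fold and with a wide spread among the late arrays, all below background. In LM8 it changed by 1.22 (adjusted p = 0.625), and the difference was 7.40 (SE 1.04, adjusted p = 0.00474), floored 6.56. Cyba, the membrane subunit of the NADPH oxidase, fell 39.7-fold in Dunn and 2.35-fold in LM8, both without overlap. The difference was 4.07 (SE 0.37, adjusted p = 0.000325), and the second probe gave 3.37 (adjusted p = 0.0561). Lox, the enzyme that crosslinks collagen and elastin, also fell in both lines, with changes of -4.97 (adjusted p = 4.05e-05) in Dunn, where 1 late array was above background, and -1.61 (adjusted p = 0.0318) in LM8. Its difference was 3.35 (adjusted p = 0.00643), floored 3.31, and the second probe did not pass (2.58, adjusted p = 0.261). Nkd2, an inhibitor of Wnt signalling, changed by -1.99 (adjusted p = 0.00251) in Dunn and -0.13 (adjusted p = 0.951) in LM8. Its difference of 1.86 (adjusted p = 0.0422) reached an adjusted p of 0.114 without late LM8 replicate 3, and its other probe did not pass (1.16).

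**Figure D2:**
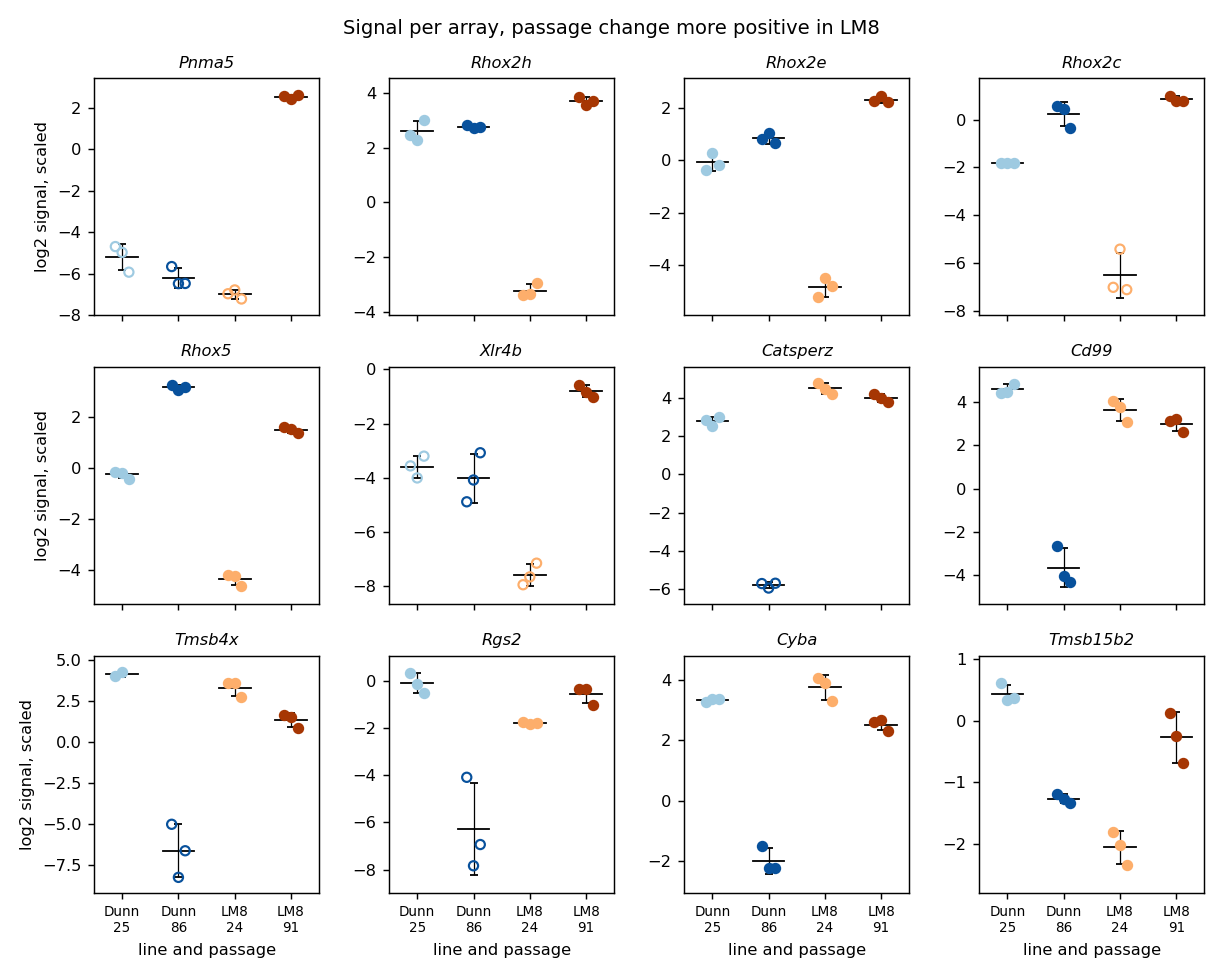
Log2 signal minus the 75th percentile of the array (y axis) on each of 3 arrays for the 4 groups of line and passage (x axis), for 12 genes with a more positive change in LM8. Lines are means and bars SD, and open symbols mark a group that was not well above background on every array measured, such as early LM8 for Pnma5 (-6.99 ± 0.22) and late Dunn for Catsperz (-5.80 ± 0.14).

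The genes with a more negative change in LM8 were led by those that fell in LM8. Rbms1, a single-strand nucleic acid binding protein, had levels of -0.26, 0.15 and -0.17 on the early LM8 arrays and -5.33, -5.54 and -5.43 on the late LM8 arrays, a 40.5-fold fall without overlap. In Dunn, where 1 early array was left out for an outlier spot, they were 1.69 and 1.88 on the early Dunn arrays and 2.33, 2.81 and 2.87 on the late Dunn arrays, a 1.85-fold rise (adjusted p = 0.0441). The difference was -6.23 (SE 0.31, adjusted p = 9.49e-06), and all 3 probes of the gene passed, with -4.49 the smallest.

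Arxes2, an X-linked gene known from fat cell differentiation, had levels of -1.89, -1.92 and -1.74 on the early LM8 arrays and -8.34, -9.04 and -8.70 on the late LM8 arrays, the latter below background. In Dunn they were 0.07, 1.61 and 0.09 on the early Dunn arrays and 1.17, 1.64 and 1.00 on the late Dunn arrays, with overlap. Arxes2 fell at least 28.7-fold in LM8, and the difference was -7.52 (SE 0.54, adjusted p = 7.17e-05), floored -5.52. Arhgdib, known mainly from blood cells, fell from 0.21, -0.11 and -0.73 to -8.01, -7.78 and -8.97 in LM8, at least 89.2-fold. In Dunn it changed by -0.88 (adjusted p = 0.211), and the difference was -7.16 (SE 0.59, adjusted p = 0.000186), floored -5.54. Its second probe, which was brighter and above background on all 12 arrays, had a difference of 0.40 (adjusted p = 0.796), so the probes of Arhgdib disagree.

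Timp2, an inhibitor of matrix metalloproteinases, was above background on all 12 arrays. Its levels were 2.31, 1.29 and 1.97 on the early LM8 arrays and -3.39, -3.89 and -4.91 on the late LM8 arrays, a 60.6-fold fall. In Dunn they were 3.85, 3.58 and 3.80 on the early Dunn arrays and 2.80, 2.82 and 3.28 on the late Dunn arrays, also without overlap but with a change of -0.77 (adjusted p = 0.221). The difference was -5.15 (SE 0.53, adjusted p = 0.000768), and the second probe gave -4.53. Sertad4 fell at least 35.3-fold in LM8, with -0.64 (adjusted p = 0.537) in Dunn and a difference of -6.20 (adjusted p = 0.00428), floored -4.66. Wnk2, a kinase of the WNK family, was above background on 1 late LM8 array and on no Dunn array. It changed by -5.71 (adjusted p = 0.000189) in LM8, or by -5.50 when floored, with a difference of -4.70 (adjusted p = 0.0119), floored -4.53. Sertad4 and Wnk2 entered the test through early LM8 alone, where they were highest, so their adjusted p-values are not free of that filter. Thbs2, a matricellular glycoprotein, was above background in early LM8 only and fell at least 78.0-fold. It entered the test through that group, so the filter fixed its direction. Its difference was -7.13 (adjusted p = 0.0348), floored -5.54, with an adjusted p of 0.0998 without late LM8 replicate 3. Avil, an actin regulator of the gelsolin family, fell 9.08-fold in LM8, with 1.08 (adjusted p = 0.114) in Dunn and a difference of -4.26 (adjusted p = 0.00306).

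Matrix and adhesion genes were among those that fell in late LM8. Itga11, a collagen-binding integrin, fell 22.9-fold in LM8 and 3.08-fold in Dunn, and its levels overlapped in neither line. The difference was -2.89 (SE 0.36, adjusted p = 0.00235). Fmod, a small proteoglycan of collagen fibrils, had levels of 3.49, 3.37 and 3.58 on the early LM8 arrays and 0.47, 0.19 and 0.53 on the late LM8 arrays, an 8.46-fold fall, and 5.19 and 5.20 on the early Dunn arrays and 4.64, 4.87 and 4.75 on the late Dunn arrays, with 1 early Dunn array left out. The difference was -2.64 (SE 0.25, adjusted p = 0.000776). Lama1, a laminin chain of basement membranes, was at -4.59, -4.58 and -4.34 in early LM8 and below background at -8.67, -8.12 and -8.94 in late LM8, at least 4.56-fold lower, while it changed by 1.04 (adjusted p = 0.0578) in Dunn. The difference was -5.12 (SE 0.42, adjusted p = 0.000187), floored -3.23. Gbp3, an interferon-induced GTPase, fell 13.8-fold in LM8 with -0.48 (adjusted p = 0.34) in Dunn, a difference of -3.30 (adjusted p = 0.00292). Rtp4, also induced by interferon, fell in both lines, 34.5-fold in LM8 and 3.48-fold in Dunn, with a difference of -3.31 (adjusted p = 0.0228). Its adjusted p was 0.0738 without late LM8 replicate 2. Rnf43, a ligase that removes Wnt receptors, fell in both lines, 5.59-fold in LM8 and 1.99-fold in Dunn. The difference was -1.49 (adjusted p = 0.0243), and 0.0868 was its adjusted p without late LM8 replicate 2.

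Dunn gained genes that did not pass in LM8. Ccnd2, cyclin D2, which drives entry into the cell cycle, had levels of -1.10, -1.36 and -1.61 on the early Dunn arrays and 3.06, 2.92 and 2.68 on the late Dunn arrays, a 19-fold rise without overlap. In LM8 they were 2.40, 1.79 and 1.73 on the early LM8 arrays and 2.50, 2.58 and 2.23 on the late LM8 arrays, with overlap, so that early Dunn stood apart from the other groups. The difference was -3.78 (SE 0.33, adjusted p = 0.000226). Dnali1, a dynein chain of cilia and flagella, had levels of -1.65, -1.88 and -1.39 on the early Dunn arrays and 2.91, 2.98 and 2.96 on the late Dunn arrays, a 24.0-fold rise, and was below background on all LM8 arrays. The difference was -4.44 (SE 0.42, adjusted p = 0.000481), floored -4.99. Itga8, an integrin chain, rose 3.03-fold in Dunn with -0.45 (adjusted p = 0.448) in LM8, a difference of -2.05 (adjusted p = 0.00598).

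Cxcl5, a neutrophil-attracting chemokine, changed by 2.65 (adjusted p = 0.00472) in Dunn, with 1 early array above background, and by 1.18 when floored. Its difference was -2.79 (adjusted p = 0.0433) and did not pass when floored, at -1.32 (adjusted p = 0.418). Lef1, a transcription factor of the Wnt pathway, rose 3.26-fold in Dunn and was below background on all LM8 arrays, with a difference of -2.42 (adjusted p = 0.0288), floored -2.12. Unc5c, a netrin receptor, changed by 1.42 (adjusted p = 0.00673) in Dunn, with 1 early array above background, and by 0.70 when floored. By this probe Unc5c was below background in LM8. Its difference was -1.60 (adjusted p = 0.0429) and did not pass when floored, at -1.11 (adjusted p = 0.338). The other, brighter probe was above background on 2 late LM8 arrays. That probe changed by 1.72 in LM8 and 1.86 in Dunn, a difference of -0.14. Lef1 and Unc5c entered the test through late Dunn alone, where they were highest, so their adjusted p-values are not free of that filter. With 1 array left out the adjusted p reached 0.12 for Cxcl5 (without late LM8 replicate 1), 0.0942 for Lef1 (without late LM8 replicate 2) and 0.121 for Unc5c (without early LM8 replicate 1).

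By each gene's brightest called probe, 20 of the 326 called genes passed in both lines in opposite directions. Calling by the difference favours such genes, and their share among all tested genes was not counted. Trpa1, an ion channel for irritants, had levels of -3.71, -3.28 and -3.78 on the early LM8 arrays and -8.27, -8.94 and -8.62 on the late LM8 arrays, the latter below background. In Dunn they were -4.60, -7.07 and -6.03 on the early Dunn arrays and -2.82, -2.69 and -3.89 on the late Dunn arrays, the former below background. Trpa1 fell at least 8.57-fold in LM8 and rose at least 2.59-fold in Dunn, and the difference was -7.79 (SE 0.76, adjusted p = 0.000532), floored -4.47. Ckb, the brain-type creatine kinase, fell from 1.03, 0.72 and 0.63 to -0.95, -0.22 and -0.24 in LM8 and rose from -2.01, -2.52 and -2.04 to 1.02, 0.19 and 0.38 in Dunn. The difference was -3.98 (SE 0.40, adjusted p = 0.000668), and both probes of the gene passed. Diras2, a small GTPase, fell 3.35-fold in LM8 and rose 6.40-fold in Dunn, a difference of -4.42 (adjusted p = 0.00235).

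Ptn, pleiotrophin, a growth factor for bone and nerve cells, fell 6.98-fold in LM8 and changed by 2.28 (adjusted p = 0.0407) in Dunn, where 1 early array was above background, or by 1.68 when floored. Its difference was -5.08 (adjusted p = 0.0117), floored -4.49, and the second probe did not pass (-4.20, adjusted p = 0.125). Lamb1, a laminin chain, fell 2.47-fold and rose 3.14-fold, a difference of -2.96 (adjusted p = 0.00397). Tnni2, a troponin of fast skeletal muscle, fell 4.14-fold and rose 2.77-fold, a difference of -3.52 (adjusted p = 0.00317). Plagl1, an imprinted zinc finger gene with 1 early Dunn array left out, had a difference of -3.25 (adjusted p = 0.00792) by 1 of its 4 probes, which ranged up to 0.63. Tmsb15b2, a thymosin beta gene on the X chromosome, was the 1 gene of this kind named here that rose in LM8, 3.45-fold, and fell in Dunn, 3.25-fold. Its levels were -1.81, -2.02 and -2.35 on the early LM8 arrays and 0.13, -0.25 and -0.70 on the late LM8 arrays, and 0.61, 0.33 and 0.37 on the early Dunn arrays and -1.19, -1.27 and -1.34 on the late Dunn arrays, and the difference was 3.49 (SE 0.32, adjusted p = 0.00039).

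**Figure D3:**
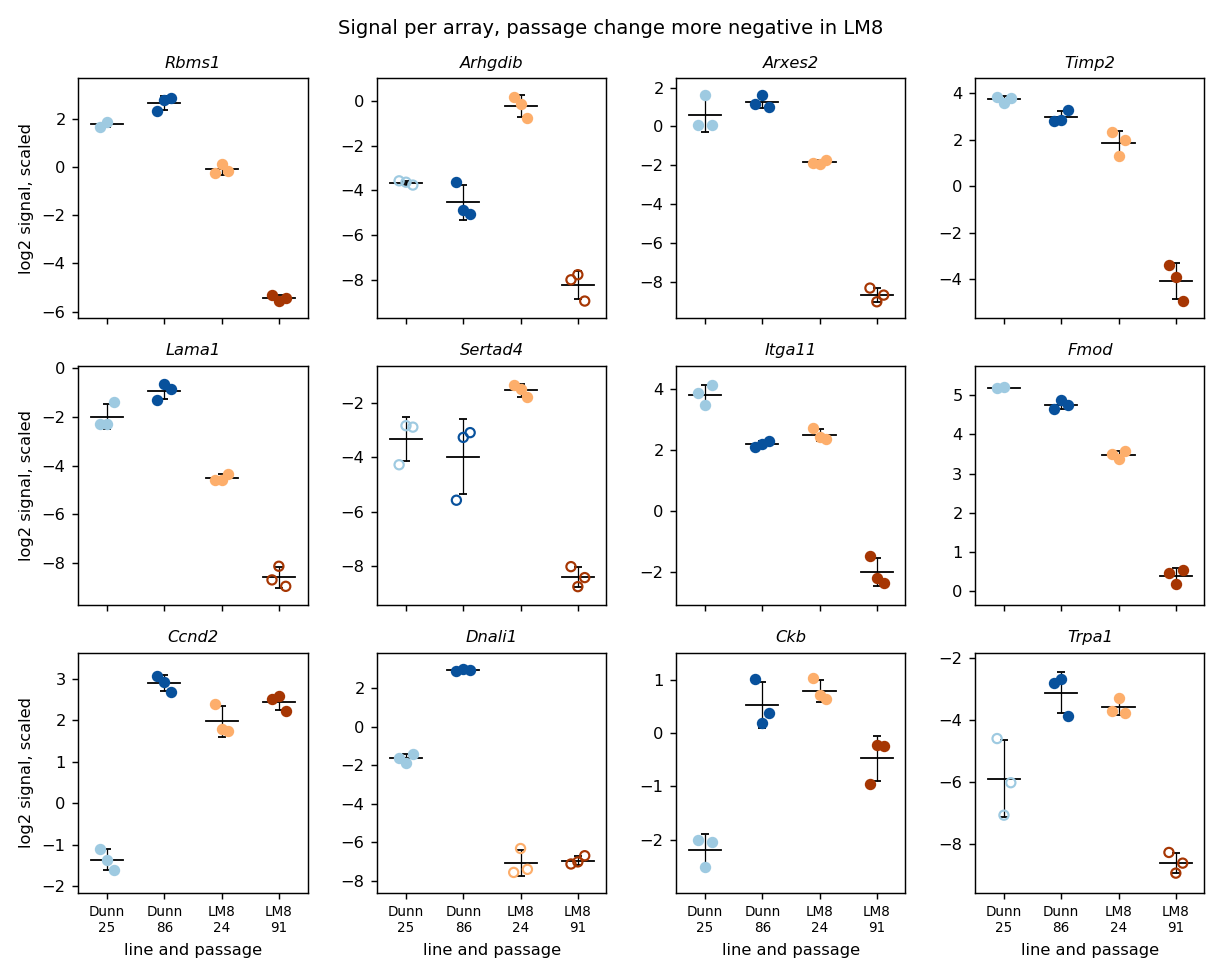
Log2 signal minus the 75th percentile of the array (y axis) on each of 3 arrays for the 4 groups of line and passage (x axis), for 12 genes with a more negative change in LM8. Lines are means and bars SD, and open symbols mark a group that was not well above background on every array measured. Late LM8 was lowest for 9 of these genes, such as Rbms1 (-5.43 ± 0.11), and early Dunn was lowest for Ccnd2 (-1.36 ± 0.26) and Ckb (-2.19 ± 0.29).

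Gene lists drawn up for bone, matrix, signalling and growth were counted by each gene's brightest tested probe. By this count 2.38% of 12549 genes were called, 1.39% more positive and 0.988% more negative in LM8, and the median difference was 0.16. Of 51 germline and cancer-testis genes, 45 were on the array and 17 were bright enough to be tested, which required a signal in some group. Among these 17, 7 called genes had a more positive change in LM8 (Catsperz, Pnma3, Pnma5, Rhox2c, Rhox5, Ssxb1 and Tuba3a), none had a more negative one, and the median difference was 2.15. Catsperz was called for its loss in Dunn. In the line-wise comparisons 9 of the 17 rose in LM8, against 1.27% of all genes, and 4 in Dunn, against 1.87%. The median was 1.94, 2.20 and 1.55 and the count 7, 5 and 3 under the brighter-probe percentile, quantile normalization and no scaling. The list was written with earlier results of these data known, which named some of its genes, so its count is no independent evidence of a direction. Pnma3, related to Pnma5, had a difference of 3.02 and Ssxb1, of the synovial sarcoma X family, 3.21.

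The interferon and class I presentation list held genes that fell in both lines. Of its 33 tested genes, 18 fell in LM8, against 2.48% of all genes, and 13 in Dunn, against 8.11%, and none rose, with median changes of -1.69 and -0.86. The difference between the lines had a median of -0.52 and passed for 1 gene, Gbp3. Under the brighter-probe percentile 5 genes of the list passed, under quantile normalization none and without scaling 2. Oas1a, a sensor of double-stranded RNA chosen after its values were seen, had changes of -4.99 in LM8 and -2.46 in Dunn (difference -2.53, adjusted p = 0.0674).

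Of 30 tested genes of collagen fibres and matrix organisation, 2 (Lox and Fbln2) were called with a more positive and 3 (Fmod, Col6a1 and Thbs2) with a more negative change. Col6a1, a chain of collagen VI, had a difference of -2.09 (adjusted p = 0.0144), with an adjusted p of 0.0513 without late LM8 replicate 2. Median changes of this list were -0.40 in both lines, and its median difference, -0.11, was -0.32 under the brighter-probe percentile, 0.04 after quantile normalization and -0.71 without scaling. Of 18 basement membrane genes, Lama1 and Lamb1 were called, and of 27 genes of integrins and focal adhesion, Itga11 and Itga8, all with a more negative change. Of 43 Wnt genes, Rnf43 and Lef1 were called by their brightest probes with a more negative change, and Nkd2 by a dimmer probe with a more positive one. Of 36 genes of TGF-beta and BMP signalling, Bmp7 was called with a more positive and Inhbb, an activin chain, with a more negative change. The difference of Inhbb was -2.37 (adjusted p = 0.0368), which was 0.0516 with the replicate number as a block and 0.103 without late LM8 replicate 3.

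Of 22 tested osteoblast genes, Dmp1 was called, and the median difference was 0.46, which was 0.27 and 0.20 under the other scalings and -0.15 without scaling. Dmp1 passed under none of these alternatives. Among 26 genes of the p53 pathway and cell cycle inhibitors Ccnd2 was called, among 20 imprinted genes Plagl1, among 11 chemokines and cytokines Cxcl5, and among 28 genes of glycolysis and hypoxia Egln3. Of 31 axon guidance genes, none was called by its brightest probe and Unc5c by another. No gene was called among 12 cartilage, 16 Hedgehog, 28 DNA replication and mitosis, 20 cholesterol synthesis, 20 immediate early and stress and 27 Hox genes. In each of these lists the gene with the smallest p is given. Cnmd, a cartilage glycoprotein below background in Dunn, fell at least 20.1-fold in LM8, with a difference of -5.99 (adjusted p = 0.0537), floored -3.41. It entered the test through early LM8, the only group where it was above background, so the filter fixed its direction. Its unfloored difference passed with the replicate number as a block (adjusted p = 0.025). The difference was -0.88 (adjusted p = 0.461) for Gas1, a Hedgehog coreceptor, 0.98 (adjusted p = 0.0792) for the cell cycle factor E2f2, -1.24 (adjusted p = 0.303) for Dhcr7, which makes the last step to cholesterol, 0.98 (adjusted p = 0.425) for the heat shock gene Hspa1a and 1.64 (adjusted p = 0.0649) for Hoxc11. Over all 21570 probes, 2458 (11.4%) had an unadjusted p under 0.05.

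**Figure D4:**
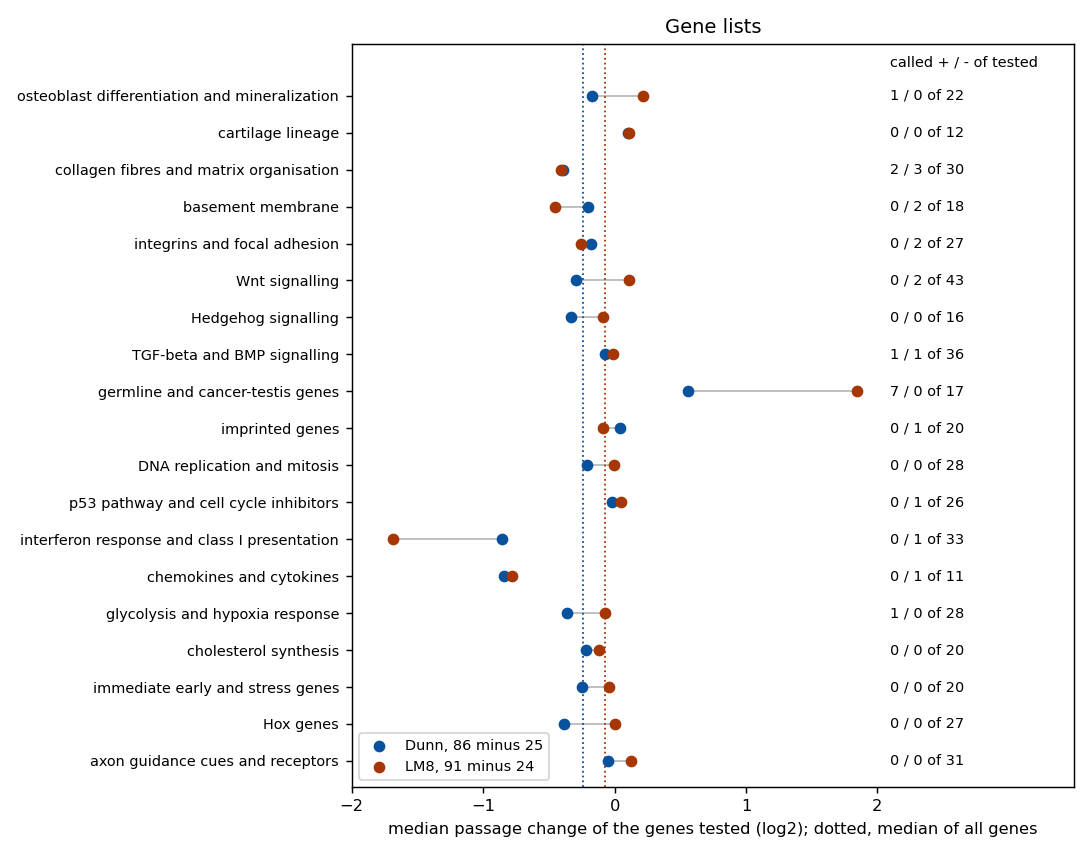
Median passage change (x axis, log2) of the tested genes of each list (y axis) in Dunn (blue) and LM8 (brown), each gene by its brightest probe, with the number called with a more positive (+) and more negative (-) change in LM8 at the right. Dotted lines are the medians of all 12549 genes, -0.24 in Dunn and -0.07 in LM8. The germline list lies above both and the interferon list below both.

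The called genes were spread over the chromosomes, with more of the positive ones on the X. Of 423 tested X-linked genes, 26 (6.15%) had a more positive called change in LM8, and 5 (1.18%) had a more negative one. On the autosomes the share with a more positive change ran from 0.704% on chromosome 14 to 2.67% on chromosome 13. The share with a more negative change was lowest on chromosome 19 (0.224%) and highest on chromosome 10 (2.12%). Families of similar genes contribute to the X-linked count, with the Rhox, Ssxb and Xlr genes among them, so that its members are not independent. The median difference over all X-linked genes was 0.19, beside 0.16 over all genes.

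**Figure D5:**
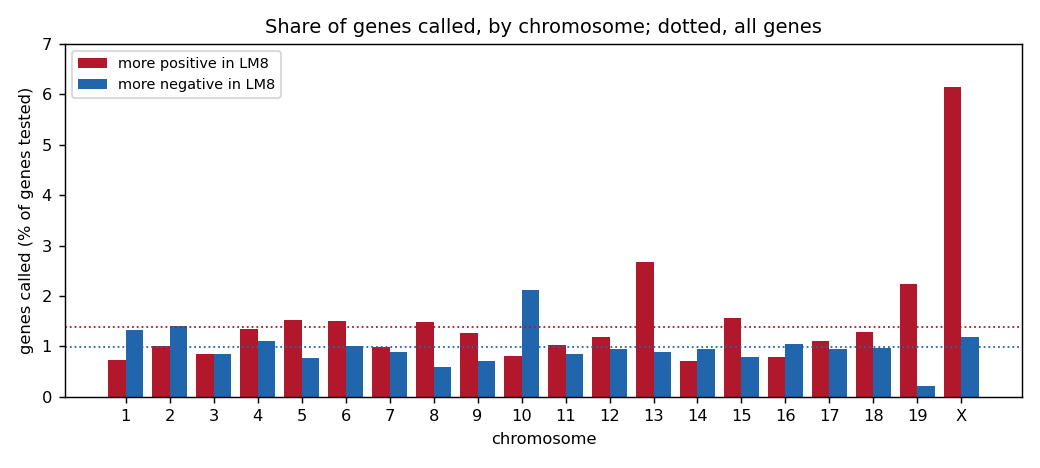
Share of the tested genes on each chromosome (x axis) that were called with a more positive (red) or more negative (blue) change in LM8 (y axis, % of genes tested, each gene by its brightest probe). Dotted lines are the shares of all genes, 1.39% and 0.988%, and the X chromosome reaches 6.15% for more positive changes.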

How the data were processed

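RNA of the 12 samples was hybridised to 1-colour Agilent mouse expression arrays. The authors scanned them with Agilent Feature Extraction (version 10.7.3 in the submitters' processing notes), and the deposited files hold the background-subtracted, processed signal intensity of each spot. A deposited table of all arrays, on a linear scale of intensity, equals these signals within 1% for 100% of values.

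Control spots and outlier spots were left out, leaving 43020 spots and 39429 probes, of which 26581 (67.4%) were matched by accession to 20144 RefSeq genes. The log2 of the deposited intensity was taken and the 75th percentile of each array subtracted. Probes that all 3 arrays of some group showed well above background, and with at least 2 values in every group were kept (21570 probes, and 315 were left out for missing values). The contrast was tested with limma 3.58.1 (lmFit and eBayes, R 4.3.3, data.table version 1.17.8, jsonlite 2.0.0, statmod 1.5.0) over 4 group means without a block, with Benjamini-Hochberg adjustment over all tested probes. The passage change in each line came from the same fit and shares its arrays with the difference between the lines. Figures were drawn in matplotlib 3.10.9 (Python 3.11.15). The fit was run on simulated data with independent arrays and 1 spread per probe. Such data lack the slide pairing and the unequal spreads of these groups.

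Genes were named by rule. The rule took the 10 largest differences in each direction after signals were floored at the lowest signal above background, the 5 largest in each direction among probes above background on all 12 arrays, up to 6 genes that passed in both lines in opposite directions, and up to 4 called genes per list, or the smallest p where none was called. Each gene stands for its brightest called probe. The genes and lists were chosen with earlier results of these data known.

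The replicate numbers were also the slide numbers, and deviations from the group means of same-numbered arrays were correlated at 0.104 to 0.506 in 18 of 18 pairs over the 0.1 required, so the numbers pair the arrays. The main fit did not use this pairing, and its counts with the replicate number as a block are given below. The number of arrays limits the precision, and no spot was saturated. Alternatives were other scalings, background correction (normexp on median spot signals with an offset of 50), filters, blocks, weights, tests and leaving out arrays.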

Additional observations from a re-analysis of the deposited data

Results flagged for a closer look

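The test of the difference between the lines was passed by 413 probes, 248 with a more positive and 165 with a more negative change in LM8. For the genes named by rule that passed it (limma, adjusted p under 0.05, n = 3 arrays in each of the 4 groups), the difference between the lines is given here as the LM8 change minus the Dunn change on the log2 scale.

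Among the genes with a more positive change in LM8 the difference was 4.09 for Akr1c13, 2.37 for Bmp7, 8.09 for Catsperz, 7.62 for Cd99, 4.07 for Cyba, 3.13 for Dmp1, 1.37 for Egln3, 3.36 for Fbln2, 6.38 for Gm9 and 3.35 for Lox. It was 1.86 for Nkd2, 10.53 for Pnma5, 7.40 for Rgs2, 5.33 for Rhox2c, 6.22 for Rhox2e, 6.78 for Rhox2h, 2.44 for Rhox5, 3.49 for Tmsb15b2, 8.81 for Tmsb4x, 7.21 for Xlr4b and 4.90 for Zscan4f.

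Among the genes with a more negative change in LM8 the difference was -7.16 for Arhgdib, -7.52 for Arxes2, -4.26 for Avil, -3.78 for Ccnd2, -3.98 for Ckb, -2.09 for Col6a1, -2.79 for Cxcl5, -4.42 for Diras2, -4.44 for Dnali1, -2.64 for Fmod and -3.30 for Gbp3. It was -2.37 for Inhbb, -2.89 for Itga11, -2.05 for Itga8, -5.12 for Lama1, -2.96 for Lamb1, -2.42 for Lef1, -3.25 for Plagl1, -5.08 for Ptn, -6.23 for Rbms1, -1.49 for Rnf43 and -3.31 for Rtp4. For the remaining genes it was -6.20 for Sertad4, -7.13 for Thbs2, -5.15 for Timp2, -3.52 for Tnni2, -7.79 for Trpa1, -1.60 for Unc5c and -4.70 for Wnk2.

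For genes with a group above background on at most 1 array, the size of the difference depends on background readings and has no order. Where both groups of a line were below background, the floored value given next also holds the gap between array floors. With signals raised to each array's lowest signal above background it was -5.54 for Arhgdib, -5.52 for Arxes2, 1.65 for Bmp7, 7.58 for Catsperz, -1.32 for Cxcl5, -4.99 for Dnali1, 3.20 for Fbln2, 5.82 for Gm9, -3.23 for Lama1, -2.12 for Lef1, 3.31 for Lox and 10.00 for Pnma5. It was -4.49 for Ptn, 6.56 for Rgs2, 4.86 for Rhox2c, -4.66 for Sertad4, -5.54 for Thbs2, 7.63 for Tmsb4x, -4.47 for Trpa1, -1.11 for Unc5c, -4.53 for Wnk2, 5.71 for Xlr4b and 5.51 for Zscan4f.

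Of these 50 genes, 38 passed in each of the 12 fits that left out 1 array, and 8 of them also in each of the 3 fits that left out 1 slide. These 8 were Pnma5, Rhox2h, Rhox2e, Catsperz, Rbms1, Arhgdib, Arxes2 and Lama1. No explanation was tested.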

How the results depend on the processing

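Against 413 probes (248 more positive, 165 more negative in LM8), no scaling called 228 (66 and 162), normexp background correction 105 (63 and 42), no filter on dim probes 170 (103 and 67 of 39068 tested), and only the 12754 probes above background on all 12 arrays 196 (117 and 79). Slide as a random block called 636 (393 and 243), array weights 681 (433 and 248), and unadjusted p under 0.05 with over 2-fold 1612 (1001 and 611). The remaining settings stayed within 1.5 times: brighter-probe percentile 430, quantile 399, floor on dim signals 320, replicate block 506 (382 shared), trend and robust 372, the methods' t-test 316 after Benjamini-Hochberg (1385 at unadjusted p under 0.05 and over 2-fold), and 1 probe per gene 371. Leaving out 1 array gave 215 to 586 probes (124 to 414 and 91 to 206). The positive count was 414 without late Dunn replicate 1 and 165 without late Dunn replicate 3. Leaving out 1 slide gave 27 to 383 (17 to 254 and 10 to 129). Alternatives chosen after seeing the data were a fit without both Dunn arrays of slide 1, which had raised background, with 669 (432 and 237), and a fit of each line on its own 6 arrays, which called 1265 probes for LM8 instead of 672 and 125 for Dunn instead of 1805.

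Among the 56 named genes, the sign turned once, for Unc5c under normexp (0.43, adjusted p = 0.769). The replicate block gained Cnmd, lost Inhbb and changed no other call. Normexp ended 22 other calls (Arhgdib, Thbs2, Sertad4, Wnk2, Ptn, Trpa1, Avil, Rtp4, Diras2, Tnni2, Dmp1, Lox, Fbln2, Lama1, Itga8, Lef1, Nkd2, Bmp7, Inhbb, Gbp3, Cxcl5 and Egln3). Quantile normalization ended 9 (Zscan4f, Sertad4, Diras2, Dmp1, Fbln2, Nkd2, Gbp3, Cxcl5 and Unc5c), no scaling 11 (Gm9, Dmp1, Fbln2, Rnf43, Nkd2, Bmp7, Inhbb, Rhox5, Cxcl5, Egln3 and Unc5c) and the brighter-probe percentile 4 (Gm9, Dmp1, Nkd2 and Cxcl5). No filter on dim probes ended 13 (Gm9, Thbs2, Rtp4, Dmp1, Col6a1, Rnf43, Lef1, Nkd2, Bmp7, Inhbb, Cxcl5, Egln3 and Unc5c), the methods' t-test 9 (Gm9, Thbs2, Rtp4, Dmp1, Lef1, Nkd2, Inhbb, Cxcl5 and Unc5c), trend and robust 3 (Lef1, Cxcl5 and Unc5c), the floor on dim signals 2 (Cxcl5 and Unc5c) and leaving out both Dunn arrays of slide 1 ended 3 (Nkd2, Cxcl5 and Unc5c). Without slide 1, 2 or 3, 16, 40 and 32 of the 50 called genes were lost. The causes were not tested. Dim groups give only bounds on a fold.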

Other observations

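Chromosomes differed in the median change of their tested genes, each gene by its brightest probe and with no test. The median change in Dunn was -0.48 on chromosomes 13 and 19 and -0.43 on chromosome 12, beside -0.24 over all genes, and it was 0.00 on chromosome 14 and 0.01 on chromosome 18. In LM8 the medians on these chromosomes were -0.09, 0.01, -0.09, -0.09 and -0.16 in the order 13, 19, 12, 14 and 18, so the median difference between the lines was largest on chromosome 19 (0.47) and lowest on chromosome 18 (-0.15).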
